A study of Mus musculus with 6 samples.

Results

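The small leucine-rich proteoglycans are secreted matrix proteins, and 10 of their genes were followed here: Dcn, Bgn, Lum, Fmod, Prelp, Omd, Ogn, Aspn, Kera and Epyc. They were taken by gene symbol, and all 10 were found among the 25899 genes of the expression table, 9 of them at levels high enough to test. RNA came from the apical part of the mesenchyme of mandibular first molars, dissected from mice at postnatal day 7.5. The 3 mutant libraries were labelled Gli1-CreER;Bmpr1afl/fl and the 3 control libraries were from littermates labelled Bmpr1afl/fl, all on a mixed C57Bl6/129S6/SvEvTac background. Every animal thus carried the loxP-flanked Bmpr1a alleles, and the groups differed by the Gli1-CreER driver, a recombinase made in Gli1-expressing cells that acts only once tamoxifen is given. The tamoxifen schedule, the treatment of the controls and any pooling of animals are not given in the sources used here. Controls 1 and 2 and mutants 1 and 2 came from litter 1, and control 3 and mutant 3 from litter 2. The labels name the tissue both as dental pulp and as tooth germ. The series as a whole asked what signalling by bone morphogenetic proteins (BMPs) does in tooth morphogenesis; Bmpr1a encodes one of the BMP type I receptors.

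Small leucine-rich proteoglycans have a curved core of leucine-rich repeats that binds collagen fibrils and sets their diameter and spacing. Decorin, biglycan and epiphycan can carry chondroitin or dermatan sulfate chains, while lumican, fibromodulin, keratocan and osteomodulin can carry keratan sulfate, and asporin lacks the chain that decorin carries. Several members also bind TGF-beta or BMP ligands in the matrix, which ties the family to growth factor signalling as well as to collagen. In teeth they are components of predentin, pulp and periodontal ligament, and asporin is also known as periodontal ligament-associated protein.

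Levels are in RPM (reads on a gene per 1000000 reads of its library), and each library held between 15916045 and 20609420 reads on genes. The RPM denominator, inferred from the step between deposited values, was larger than the reads on genes of each library. By that step, 3 reads corresponded to 0.0987 to 0.126 RPM. Bmpr1a itself was at 121, 139 and 150 RPM in controls 1 to 3 and at 108, 120 and 111 RPM in mutants 1 to 3, a difference of -0.27 on the log2(RPM + 1) scale (SE 0.14, unadjusted p = 0.0910, limma). Markers of dental papilla mesenchyme, all 8 of them detected, summed to between 780 and 1205 RPM in every library. The libraries differed more in other markers: 9 enamel epithelium genes summed to between 2320 and 39089 RPM in controls and between 5273 and 49563 RPM in mutants, and 5 odontoblast genes to between 15879 and 26977 RPM in controls and between 5185 and 36599 RPM in mutants. All 5 skeletal muscle markers were below 1 RPM in the mean, while erythroid markers reached 1984 RPM in control 3 against 177 to 610 RPM elsewhere. In bulk tissue, fewer cells of a type and less RNA per cell cannot be told apart. Nothing in the labels says how the animals behind replicate libraries relate beyond their litter, so p-values measure only the spread between these libraries.

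The family was led by Lum, Dcn and Bgn, which together made up 74.4% to 87.1% of its level per kilobase of transcript in every library. Lum (lumican), at 838 RPM per kb, ranked 14 among the 12015 tested genes with a known transcript length. Dcn (decorin) followed at 618 RPM per kb, rank 25, and Bgn (biglycan) at 368 RPM per kb, rank 49. Below these came Fmod (fibromodulin) at 167, Ogn (osteoglycin, also called mimecan) at 132 and Omd (osteomodulin, also called osteoadherin) at 120 RPM per kb, with ranks between 150 and 237. Prelp, whose product links basement membranes to the collagen beneath, was at 21.7 RPM per kb and Aspn (asporin) at 12.1. Epyc (epiphycan, known mainly from cartilage) was at 1.27 RPM per kb, and Kera (keratocan, known mainly from cornea) at 0.0841. The cornea and cartilage members were thus at the bottom of the order, and the order of the 10 genes by their mean over libraries was identical in RPM and in RPM per kb.

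Neighbours in that order were not always separated within libraries, compared per kb of transcript throughout. Per kb, Bgn exceeded Fmod, Omd exceeded Prelp, Aspn exceeded Epyc and Epyc exceeded Kera in all 6 libraries with ranges that did not overlap. Per kb, Lum exceeded Dcn and Dcn exceeded Bgn in all 6 libraries, although their ranges over libraries overlapped. Also per kb, Fmod exceeded Ogn in 4 libraries, Ogn exceeded Omd in 5 and Prelp exceeded Aspn in 4, so these neighbours did not differ beyond their spread.

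**Figure D1:**
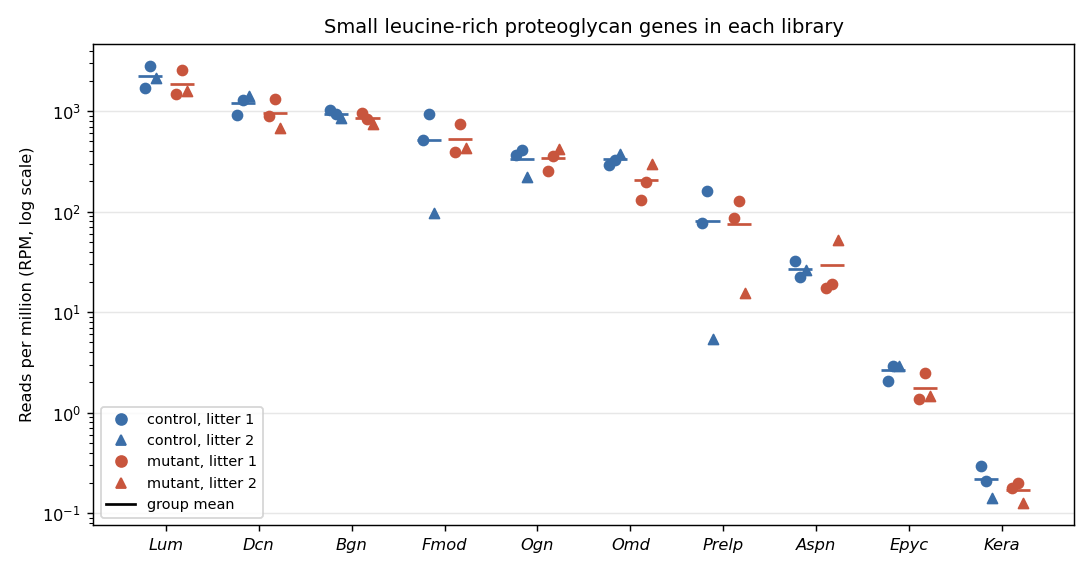
RPM of each of the 10 genes in each library on a log axis, by genotype and litter, in order of their level. Lum lies between 1471 and 2825 RPM, Prelp spreads from 5.37 to 161 RPM, and Kera stays at 0.296 RPM or below in all 6 libraries.

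Summed over the 10 genes, the family reached 4928, 6917 and 5131 RPM in controls 1 to 3 and 4192, 6202 and 4228 RPM in mutants 1 to 3, which is 5659 ± 1094 RPM in controls and 4874 ± 1150 RPM in mutants (SD, n = 3 each). The groups overlapped, and control 2 and mutant 2 held the highest sums of their groups. The family took 0.623% to 1.01% of all reads on genes. Its make-up per kb was steadiest for Lum, at 33.0% to 39.4% of the family, and Dcn contributed 21.3% to 34.5%. The share of Fmod ran from 1.34% in control 3 to 10.3% in control 2, and that of Prelp from 0.0638% in control 3 to 1.52% in control 2.

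**Figure D2:**
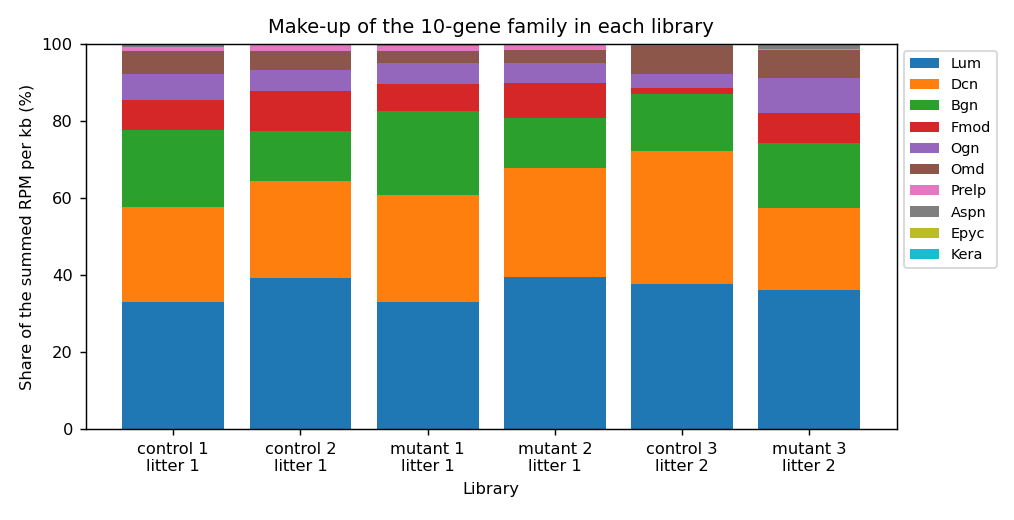
Share of each gene in the summed RPM per kb of the 10 genes, 1 bar per library. Lum, Dcn and Bgn fill 74.4% to 87.1% of each bar, and the Fmod segment is 1.34% in control 3 against 6.93% or more in the other 5 libraries.

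Apart from Bgn on the X chromosome (chrX:73483601-73495936), the members lie in 3 clusters of the mouse genome in RefSeq annotation of GRCm38.p6, the build also called mm10. Prelp (chr1:133910304-133930102) and Fmod (chr1:134037254-134048280) share a 151 kb stretch with the related gene Optc. Dcn (chr10:97479500-97518163), Lum (chr10:97565501-97572703), Kera (chr10:97606962-97613688) and Epyc (chr10:97644068-97681908) fill 202 kb, with no other protein-coding gene between them. Aspn (chr13:49544443-49567565), Omd (chr13:49582462-49592612) and Ogn (chr13:49608015-49624501) lie in 120 kb with the related gene Ecm2, inside the span of Cenpp on the opposite strand. An exon of Cenpp, at 4.12 to 7.67 RPM, overlaps an exon of Aspn, and without strand information reads of the pair cannot be told apart there. Neighbours differed widely in level: on chromosome 10, Lum per kb was 9972-fold above Kera, which lies 34.3 kb away from it.

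None of the 9 tested members changed with genotype after adjustment over all 14444 tested genes (limma, adjusted p of 1.00 for every member to 3 digits), where 0.00% of all genes did. At an unadjusted p under 0.05, 1 of 9 members, Omd, was lower in mutants, against 0.692% of all genes lower, 0.360% higher and 1.05% in either direction. Of the 9 members, 6 had a negative and 3 a positive difference, with a median of -0.15 on the log2(RPM + 1) scale beside -0.01 over all genes tested. The 95% intervals of 8 members included 0. In none of the 9 were the mutant libraries all below or all above the controls, a pattern seen in 1.67% of all genes for mutants below and 0.976% for mutants above. The intervals were wide for some members, reaching from -2.56 to 3.35 for Prelp and from -1.35 to 2.30 for Fmod in this fit without litter. With litter as a block, the SE of the genotype difference was smaller, 0.40 in place of 1.26 for Prelp (difference 0.40, unadjusted p = 0.357, limma) and 0.57 in place of 0.77 for Fmod (difference 0.47, unadjusted p = 0.431, limma).

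**Figure D3:**
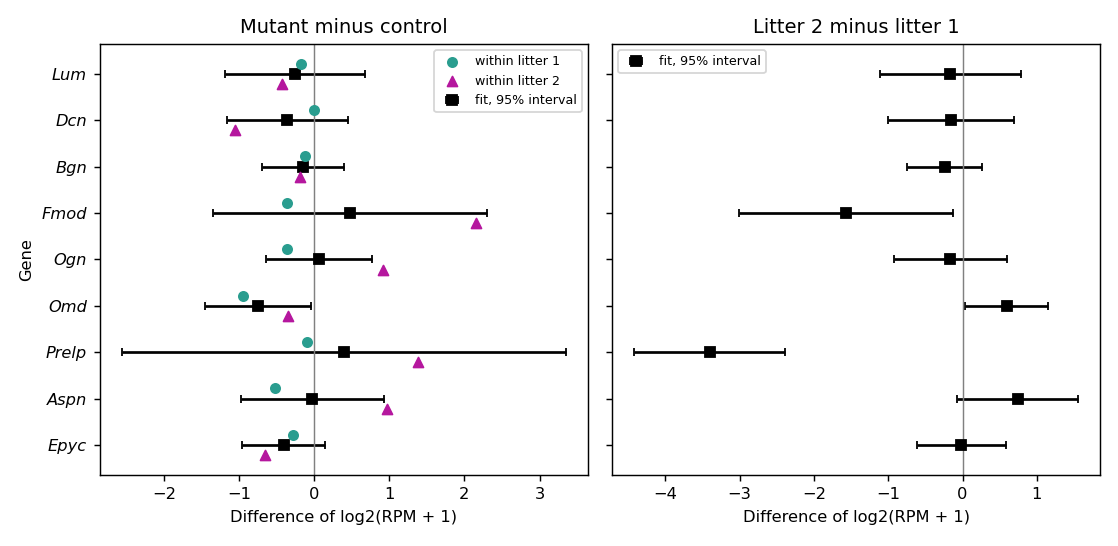
Differences of log2(RPM + 1) with 95% intervals for the 9 tested members, for mutant minus control and for litter 2 minus litter 1. The genotype interval of Omd, from -1.45 to -0.04, is the 1 of 9 that leaves out 0, and the litter interval of Prelp runs from -4.42 to -2.38.

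Omd encodes a keratan sulfate proteoglycan of bone and dentin matrix that binds hydroxyapatite and is made by osteoblasts and odontoblasts. Its level was 293, 324 and 377 RPM in controls 1 to 3 and 129, 197 and 297 RPM in mutants 1 to 3. Every mutant lay below the control of its own litter, but mutant 3 at 297 RPM was above control 1 at 293 RPM, so the groups overlapped by this pair. The difference was -0.74 on the log2 scale (SE 0.30, 95% interval -1.45 to -0.04, unadjusted p = 0.0413, adjusted p = 1.00, limma). With litter as a block it was again -0.74, with an SE of 0.22 (unadjusted p = 0.0125, limma), and it did not pass adjustment. The difference was -0.94 within litter 1 and -0.34 within litter 2. In the fit without litter, the difference without mutant 1 was -0.45 (unadjusted p = 0.108, limma). Without mutant 3 it was -1.04 (unadjusted p = 0.00412, limma). With any of the other libraries left out in turn, the unadjusted p (limma) lay between 0.0584 and 0.103. Omd was also higher in litter 2 than in litter 1, by 0.59 (SE 0.23, unadjusted p = 0.0396, adjusted p = 0.218, limma), which moved to 0.29 (unadjusted p = 0.366, limma) without mutant 3 and to an unadjusted p of 0.0634 (limma) without control 1. The 7 bone markers, all detected, summed to 1066, 2118 and 1820 RPM in controls and 2031, 1759 and 558 RPM in mutants. The fitted genotype difference was negative for all 7, from -3.05 for Spp1 and -1.41 for Ibsp to -0.20 for Bglap2, none past adjustment. Within litter 1, Bglap (0.76) and Bglap2 (0.86) had positive differences and the other 5 negative ones. The part of bone or odontoblast content in the difference in Omd was not tested.

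Prelp and Fmod, neighbours on chromosome 1, ranged most widely, and their promoters are shown beside those of Omd, the member with the lowest unadjusted p between genotypes, and Bgn, the member that varied least. The 250 bases before the start of each gene in the RefSeq promoter table (GRCm38.p6) are printed 5′ to 3′ on the gene's strand, and capitals mark E-boxes (CANNTG, which reads as an E-box on both strands). The table held 8 of the 10 members, without Dcn and Lum. The windows are chr1:133921402-133921651 on the minus strand for Prelp, chr1:134037004-134037253 on the plus strand for Fmod, chr13:49582212-49582461 on the plus strand for Omd and chrX:73483351-73483600 on the plus strand for Bgn. The Prelp gene record extends further upstream, to 133930102, so its window belongs to the start listed in that table.
Prelp: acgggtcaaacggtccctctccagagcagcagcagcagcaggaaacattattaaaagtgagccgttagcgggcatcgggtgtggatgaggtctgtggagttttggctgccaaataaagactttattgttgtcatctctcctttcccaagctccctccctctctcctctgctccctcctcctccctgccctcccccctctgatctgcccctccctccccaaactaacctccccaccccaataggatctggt
Fmod: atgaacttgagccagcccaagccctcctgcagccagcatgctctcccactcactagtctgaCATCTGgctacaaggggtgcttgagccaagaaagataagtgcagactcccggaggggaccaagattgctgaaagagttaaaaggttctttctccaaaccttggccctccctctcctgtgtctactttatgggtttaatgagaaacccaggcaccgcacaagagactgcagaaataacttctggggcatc
Omd: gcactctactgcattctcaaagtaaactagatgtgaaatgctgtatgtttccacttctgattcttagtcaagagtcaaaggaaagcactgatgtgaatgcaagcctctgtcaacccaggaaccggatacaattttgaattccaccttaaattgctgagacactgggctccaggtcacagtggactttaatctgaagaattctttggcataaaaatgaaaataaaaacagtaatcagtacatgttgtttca
Bgn: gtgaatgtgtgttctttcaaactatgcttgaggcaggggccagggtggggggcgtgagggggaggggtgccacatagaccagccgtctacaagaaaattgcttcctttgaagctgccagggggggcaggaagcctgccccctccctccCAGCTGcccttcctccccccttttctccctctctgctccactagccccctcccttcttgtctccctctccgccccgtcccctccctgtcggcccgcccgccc

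The GC content of these windows was 55.6% for Prelp, 51.2% for Fmod, 38.4% for Omd and 64.4% for Bgn, beside a median of 52.4% over 32851 promoter windows of equal length. Fmod held 1 E-box, 189 bases before its start, and Bgn held 1, at 102 bases, while Prelp and Omd held none; 66.2% of all windows hold at least 1. Bgn had 3 GC boxes (GGGCGG on either strand), a motif of 32.7% of windows, within 34 bases of its start. CACCC, read on either strand, occurred 2 times in Prelp, 1 time in Fmod, 2 times in Bgn and 0 times in Omd, and 52.0% of all windows hold it. The letters TATAAA (12.4% of windows), TGTGGT (14.1%), TGANTCA (6.75%) and GGCGCC (9.59%), each searched on both strands, were in none of the 4 windows. Overlapping matches were counted separately. These are matches of letters and describe the windows only.

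Prelp was the 1 member called by litter. In litter 1 it reached 76.9 RPM in control 1, 161 RPM in control 2, 85.8 RPM in mutant 1 and 126 RPM in mutant 2. In litter 2 it was at 5.37 RPM in control 3 and 15.6 RPM in mutant 3. Both libraries of litter 2 thus lay far below all 4 of litter 1, with means of 10.5 ± 7.26 RPM (SD, n = 2) and 113 ± 38.9 RPM (SD, n = 4), a 10.7-fold difference. In the model with genotype and litter, litter 2 differed by -3.40 on the log2 scale (SE 0.42, 95% interval -4.42 to -2.38, adjusted p = 0.0415, limma). After adjustment, 0.872% of all genes were called between litters, 0.831% lower and 0.0415% higher in litter 2, and litters without overlap were found with litter 2 lower in 20.5% of genes and higher in 15.0%. The adjusted p (limma) was 0.145 without control 3 (change -2.66), 0.188 without mutant 2 (-3.39), 0.0617 without mutant 3 (-4.14), 0.0540 with median-of-ratios scaling and 0.0802 with no filter on low values. The change lay between -4.14 and -2.66 in all 9 alternatives. Since litter 2 is 1 control and 1 mutant, effects of litter, of animal and of dissection cannot be told apart.

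Fmod, which binds collagen beside lumican and is strongly made in tendon and in odontoblasts, was at 514, 940.2 and 97.0 RPM in controls 1 to 3 and 392, 744 and 434 RPM in mutants 1 to 3. Control 3 was the low library; mutant 3, of that same litter, lay within the range of litter 1. Means were 517 ± 422 RPM in controls and 523 ± 192 RPM in mutants (SD, n = 3 each), and the genotype difference was 0.47 (SE 0.77, unadjusted p = 0.559, limma). It turned from 0.47 to -0.47 without control 3. Litter 2 differed by -1.57 (SE 0.60, unadjusted p = 0.0369, adjusted p = 0.212, limma), which moved to -0.31 (unadjusted p = 0.570) without control 3 and to -2.83 (unadjusted p = 0.00137) without mutant 3. The ratio of Lum to Fmod was 3.004 to 3.75 in 5 libraries and 22.1 in control 3, while the ratio of Fmod to Prelp was 4.57 to 6.68 in litter 1 and 18.1 and 27.8 in litter 2.

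At an unadjusted p under 0.05, 3 of 9 members differed between litters: Prelp and Fmod lower in litter 2, a direction in which 13.7% of all genes passed, and Omd higher, a direction in which 7.21% passed. In either direction 20.9% of all genes passed. The highest library exceeded the lowest by 30.1-fold for Prelp and 9.69-fold for Fmod, and a range of at least 8-fold, or a lowest value of 0, was found in 3.29% of tested genes. A range at least as wide as that of Prelp was found in 0.796%. The median range was 2.18-fold over the 9 tested members and 1.58-fold over all tested genes. The 5 odontoblast markers, all detected, summed to 20126, 26977 and 15879 RPM in controls and 36599, 21553 and 5185 RPM in mutants. Between litters, the members of that list went both ways. In litter 2, Dspp (dentin sialophosphoprotein) differed by -4.03, Phex by -3.47 and Col1a1 by -1.25, while Dmp1 differed by 1.80 and Smpd3 by 1.15, and none passed adjustment (limma). Their part in the litter differences of Prelp and Fmod was not tested.

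**Figure D4:**
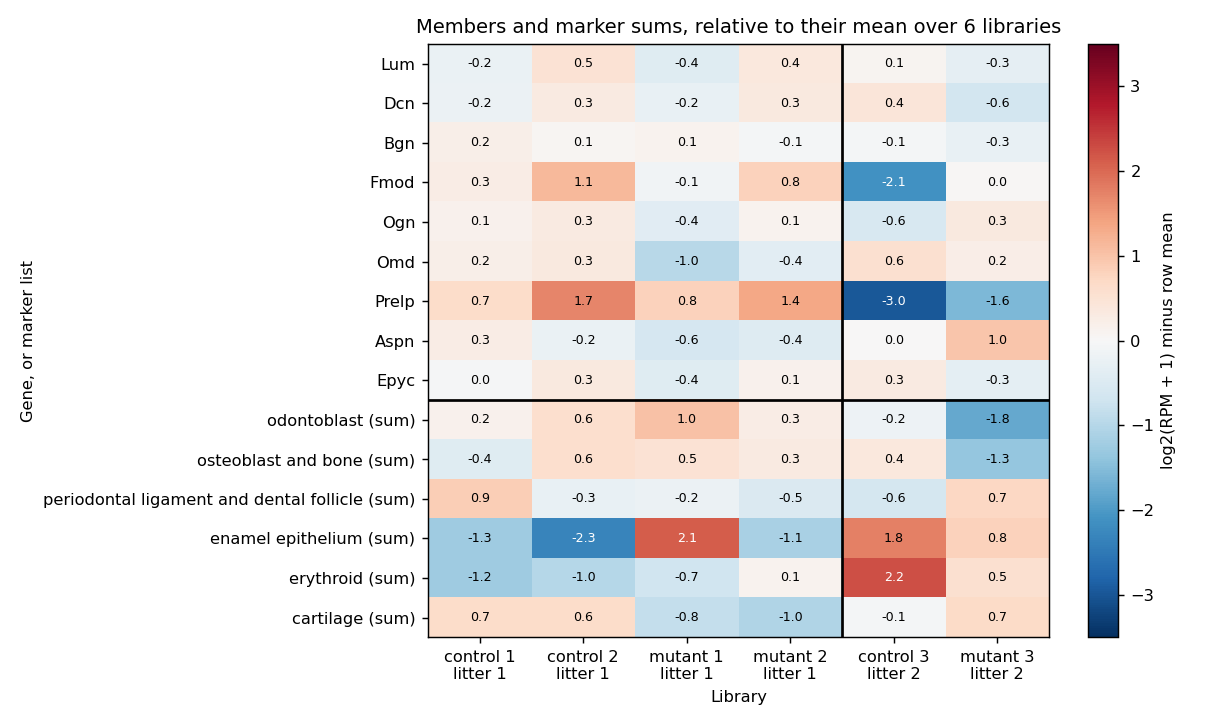
log2(RPM + 1) of each tested member and selected marker sums in each library, minus its row mean over the 6 libraries, ordered by litter. The sums are of odontoblast, bone, periodontal ligament and dental follicle, enamel epithelium, erythroid and cartilage markers. Prelp is low in both libraries of litter 2, Fmod is low in control 3, and the enamel epithelium sum, from 2320 to 49563 RPM, is high in control 3 and in mutants 1 and 3.

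Ogn and Aspn, which lie on either side of Omd on chromosome 13, differed by genotype in opposite directions in the litters, while Omd was lower in mutants in both (-0.94 and -0.34). Fmod (-0.36 in litter 1 and 2.15 in litter 2) and Prelp (-0.10 and 1.39) also changed sign, but their groups overlapped in litter 1. Ogn encodes a small keratan sulfate-bearing proteoglycan of bone and vessel walls, and was at 365, 412 and 221 RPM in controls 1 to 3 and 252, 361 and 419 RPM in mutants 1 to 3. Both litter 1 mutants lay below both litter 1 controls, by -0.36 on the log2 scale, and mutant 3 lay above control 3 by 0.92. Aspn, which binds collagen and TGF-beta and is made by periodontal ligament cells, stood at 31.9, 22.1 and 26.5 RPM in controls and 17.3, 19.1 and 52.7 RPM in mutants. Here too both litter 1 mutants were below both litter 1 controls (-0.53), and mutant 3 was above control 3 (0.97). Over both litters the genotype differences were 0.06 (SE 0.30, unadjusted p = 0.834, limma) for Ogn and -0.03 (SE 0.40, unadjusted p = 0.947, limma) for Aspn.

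The difference between litters in the genotype effect was 1.28 for Ogn (SE 0.42, unadjusted p = 0.0220, limma), 1.49 for Aspn (SE 0.37, unadjusted p = 0.00706, limma) and 2.51 for Fmod (SE 0.72, unadjusted p = 0.0128, limma). These 3 of 9 members passed an unadjusted p of 0.05, all in the positive direction, against 3.10% of all genes in that direction, 1.96% in the other and 5.06% in either. None passed adjustment, the smallest adjusted p among members being 0.708 (limma), as for 0.00% of all genes. The opposite pattern without overlap in litter 1, as in Ogn and Aspn, occurred in 2 of 9 members and in 18.2% of all genes. The 6 periodontal ligament and dental follicle markers, all detected, summed to 884, 404 and 320 RPM in controls and 424, 342 and 807 RPM in mutants, most of it from Postn (periostin) at 222 to 791 RPM. The difference between litters in the genotype effect was positive for Tnn (2.35), Postn (2.27), Pthlh (0.92) and Mkx (0.72) and negative for Tnmd (-0.36) and Scx (-0.74). Mutant 3, the library highest in Aspn and Ogn, was the mutant highest in the summed markers, and control 1, the library highest in that sum, was the control highest in Aspn, while the control highest in Ogn was control 2. Their part in the differences was not tested. Litter 2 rests on 1 library of each genotype.

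Within litter 1, all 9 tested members were lower in mutants than in controls on the mean of log2 values, and 67.7% of all genes were too. With median-of-ratios scaling, which moves the median of all genes in litter 1 from -0.08 to 0.01, 8 of 9 were lower, all but Dcn, beside 48.1% of all genes. Within litter 2, 5 of 9 members were lower beside 32.0% of all genes, and with that scaling 5 of 9 beside 51.1%, the median of all genes moving from 0.12 to -0.01.

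Dcn, Lum and Bgn, the most abundant members, differed little by genotype relative to their spread. Lum, which steers fibril assembly together with fibromodulin, was at 1706, 2825 and 2144 RPM in controls 1 to 3 and 1471, 2579 and 1591 RPM in mutants 1 to 3. Mutant 2 exceeded controls 1 and 3, so the groups overlapped, with means of 2225 ± 563 RPM and 1880 ± 608 RPM (SD, n = 3 each). The difference was -0.26 (SE 0.40, 95% interval -1.19 to 0.67, unadjusted p = 0.533, limma).

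Dcn, which binds fibrillar collagen and TGF-beta, stood at 918, 1296 and 1411 RPM in controls and 885, 1335 and 677 RPM in mutants. Mutant 3 was the lowest library and control 3 the highest, so the difference of -1.06 within litter 2 contrasted with -0.01 within litter 1. Over all libraries it was -0.36 (SE 0.34, 95% interval -1.16 to 0.44, unadjusted p = 0.329, limma), and it moved to -0.13 without mutant 3 and to -0.62 without mutant 2. Bgn, which binds collagen and BMP ligands and is known from bone and predentin, stood at 1021, 934 and 845 RPM in controls and 957, 839 and 741 RPM in mutants. It was the member that varied least, 1.38-fold between the highest and lowest library. Its difference was -0.15 (SE 0.23, 95% interval -0.69 to 0.40, unadjusted p = 0.547, limma). The ratio of Bgn to Dcn ran from 0.599 in control 3 to 1.11 in control 1 and from 0.629 to 1.10 in mutants.

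Epyc was low, at 2.04, 2.94 and 2.90 RPM in controls and 1.35, 2.46 and 1.47 RPM in mutants, or 35 to 84 reads per library. Means were 2.62 ± 0.506 RPM and 1.76 ± 0.611 RPM (SD, n = 3 each). The groups overlapped through mutant 2, and the difference of -0.41 had an interval from -0.96 to 0.15 (SE 0.23, unadjusted p = 0.126, limma). Kera stood at 0.296, 0.210 and 0.141 RPM in controls and 0.178, 0.200 and 0.126 RPM in mutants, which is 3 to 9 reads, and was not tested. Cartilage markers summed to 18.9 to 63.9 RPM, with Matn1 and Matn3 below 1 RPM in the mean.

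Of 8 further genes of the wider family, 5 were at a mean of at least 1 RPM, and none passed an unadjusted p of 0.05 between genotypes (2 higher, 3 lower, median -0.01). Tsku (tsukushi, a secreted modulator of BMP and Wnt signalling) was at 54.4 to 70.6 RPM. Ecm2, the neighbour of Aspn, stood at 24.1, 31.3 and 8.86 RPM in controls and 14.99, 28.9 and 17.3 RPM in mutants. Chadl stood at 24.6, 21.1 and 11.5 RPM in controls and 11.7, 14.97 and 29.2 RPM in mutants, with litter 1 mutants lower (-0.74) and the litter 2 mutant higher (1.27). Podnl1 was at 2.43 to 5.39 RPM and Podn at 0.455 to 2.39 RPM, and Optc, Chad and Nyx were below 1 RPM in the mean.

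Genes that act with the family were described by lists, beside 6585 higher and 7859 lower of the 14444 genes tested, 1.05% of all genes at an unadjusted p under 0.05 and 1.67% with mutants below controls without overlap. Enzymes of the chondroitin and dermatan sulfate chains, 22 tested, had 10 higher and 12 lower in mutants with a median of -0.05, and 0 passed an unadjusted p of 0.05 (limma). The most abundant were Dsel, an epimerase that makes dermatan sulfate, at 73.3 to 156 RPM (change 0.15), and Chpf2, a chondroitin polymerizing factor, at 98.0 to 110.2 RPM (-0.08). Keratan sulfate enzymes, 5 tested of 7, had 1 higher and 4 lower with a median of -0.16, and 0 passed; B4galt1 was at 69.1 to 103 RPM and the sulfotransferase gene Chst2 at 45.8 to 114 RPM.

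Of 13 collagens of fibrils and fibril surfaces, 2 were higher and 11 lower in mutants, with a median of -0.29, and 2 passed an unadjusted p of 0.05, both lower, a direction in which 0.692% of all genes passed. Col5a1, a collagen that limits fibril diameter, stood at 454, 393 and 449 RPM in controls and 314, 259 and 376 RPM in mutants, without overlap (-0.46, SE 0.19, unadjusted p = 0.0484, adjusted p = 1.00, limma). Col6a3, of the beaded filaments around cells, stood at 225, 223 and 212 RPM in controls and 113, 137 and 150 RPM in mutants, also without overlap (-0.73, SE 0.15, unadjusted p = 0.00186, adjusted p = 1.00, limma). Col1a1 and Col1a2, the chains of the main fibrillar collagen of dentin and bone, were at 4871 to 28920 and 3090 to 13993 RPM, and both were lowest in mutant 3. Among 15 crosslinking and processing genes, 2 were higher and 13 lower with a median of -0.19, and 0 passed; Pcolce was at 178 to 359 RPM and Lox, a collagen crosslinker, at 58.5 to 451 RPM, again lowest in mutant 3.

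Among 6 TGF-beta ligand and receptor genes, 3 were higher and 3 lower with a median of -0.02, and 0 passed an unadjusted p of 0.05 (limma). Tgfb3 stood at 320, 492 and 160 RPM in controls and 340, 430 and 143 RPM in mutants, lowest in both litter 2 libraries. Tgfbr2 was at 141 to 170 RPM in controls and 171 to 195 RPM in mutants, without overlap (0.18, SE 0.14, unadjusted p = 0.253, limma). Mutants above controls without overlap were found in 0.976% of all genes. Of 8 receptors reported to bind the family, 5 were higher and 3 lower with a median of 0.11, and 0 passed; Lrp1, an endocytic receptor for decorin, was at 216 to 475 RPM and Kdr at 41.4 to 68.7 RPM. Other proteoglycan core proteins, 15 tested of 16, had 5 higher and 10 lower with a median of -0.18, and 0 passed. In 1 of these 15, all mutants lay below all controls, a pattern of 1.67% of all genes. Vcan (versican) stood at 707, 525 and 271 RPM in controls and 298, 403 and 585 RPM in mutants, and Sdc3 (syndecan-3) at 680, 655 and 249 RPM in controls and 643, 690 and 304 RPM in mutants. Between litters, Sdc3 (-1.28, adjusted p = 0.0438, limma) was called lower in litter 2, as were Bcan (-1.86, adjusted p = 0.0420) and Erbb4 (-2.55, adjusted p = 0.0420), the last pair being named after their values were seen. In that direction 0.831% of all genes were called. No gene at all was called between litters with median-of-ratios scaling, without mutant 2 or without mutant 3, so these calls, too, are lost there.

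**Figure D5:**
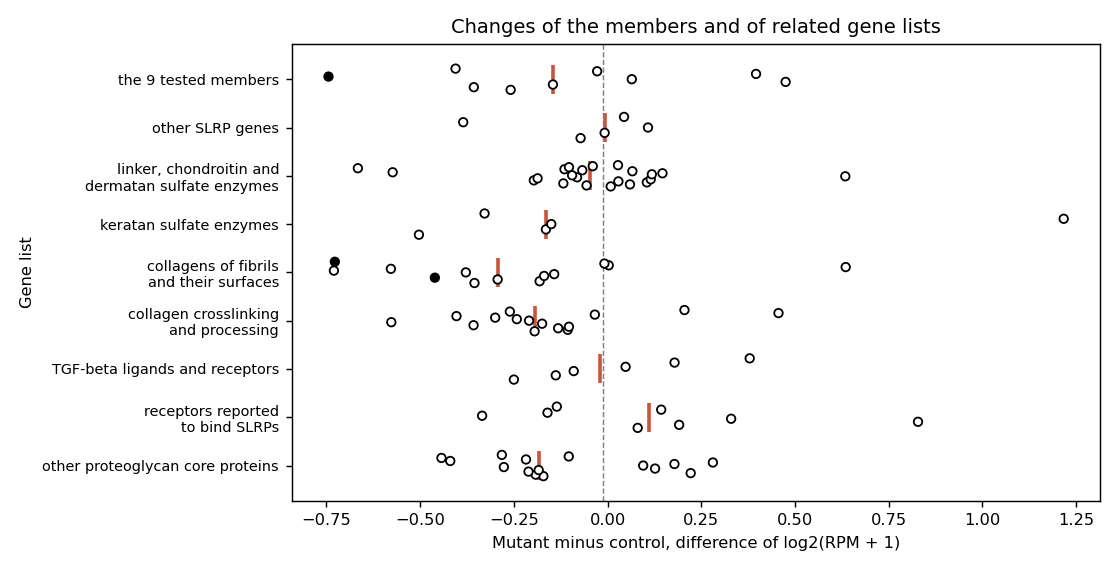
Mutant minus control difference of log2(RPM + 1) for each tested gene of the family and of the related gene lists, 1 point per gene (filled where the unadjusted p is under 0.05) and a red bar at each median, with the dashed line at the median of all tested genes (-0.01). The members' median is -0.15, the collagens' -0.29 and the receptors' 0.11.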

How the data were processed

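Poly(A) RNA libraries from 6 mouse samples (3 mutant, 3 control) were read on an Illumina NextSeq 500 instrument, as the labels' protocols state. TopHat2 and mm10 are named in the submitters' processing notes, and the counting program and annotation are not given in the sources used here. The authors deposited log2 values for 25899 genes under a title naming RPKM. Raised as powers of 2, 99.97% to 100% of values per library above the library's minimum were whole multiples (within 0.1) of 1 step shared by all genes, so length had not been divided out and the values were taken as log2 RPM. The minimum was taken as no reads. The denominator is inferred from the step.

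Linear RPM values were recovered from these, and limma 3.58.1 (R 4.3.3; lmFit, eBayes with a mean-variance trend, two-sided) was run on log2(RPM + 1) for the 14444 genes whose mean reached 1 RPM, with Benjamini-Hochberg adjustment over all of them and a threshold of 0.05. A pseudocount of 1 understates the change of low genes. The fits were genotype alone, genotype with litter, and their product; the code was tested on simulated data. The step values also gave the recovered whole reads, used only in limma voom. Intervals are 95%, floors are 3 reads, and such floors speak for counting error alone: no molecular identifiers mark which reads are copies. Levels per kb used the longest GENCODE transcript with a RefSeq link, known for 12015 tested genes. Promoters and positions came from RefSeq GRCm38.p6.

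Genes named are all 10 members, the further family genes, Bmpr1a and the 2 most abundant genes of each other list. Listed genes with an unadjusted p under 0.05 (limma) between genotypes were named too. Single marker genes, Bcan and Erbb4 were named after their values were seen. The members, lists and tests were chosen with earlier results of these data known. Alternatives were pseudocounts of 0.1 and 0.5, a filter at a mean of 5 RPM, dropping the filter, 3 other scalings, eBayes without trend, sample weights, litter or replicate number as a block, litter 1 alone, voom, and leaving out each library.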

Additional observations from a re-analysis of the deposited data

Results flagged for a closer look

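Ogn and Aspn, 2 of 9 tested members, each moved in opposite directions in the litters without overlap in litter 1. Fmod and Prelp also changed sign between litters, but their groups overlapped in litter 1. In Ogn both mutants of litter 1 lay below both controls (change -0.36 on the log2(RPM + 1) scale), and in litter 2 the mutant lay above the control (0.92). In Aspn the corresponding changes were -0.53 and 0.97. The limma test of the difference itself gave 1.28 for Ogn (unadjusted p = 0.0220) and 1.49 for Aspn (unadjusted p = 0.00706), neither past adjustment over all genes, and 18.2% of all tested genes show such opposite directions.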

How the results depend on the processing

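No member was called by genotype after adjustment under any alternative. The count of all genes called was 0, and 0 to 1 when each library was left out, the 1 without control 1. At an unadjusted p under 0.05 the count was 152 genes (limma), against 344 with no filter, 309 under sample weights, 292 once litter was a block, 319 for litter 1 alone and 68 to 325 when each library was left out. With the replicate number as a block it was 524, with 0 adjusted calls and Omd at an unadjusted p of 0.00788. Same-numbered libraries deviated from their group means with correlations of -0.03, 0.75 and 0.50 across genes, and differently numbered ones with -0.67 to 0.09. Control 3 and mutant 3 share litter 2. The numbers were not taken as pairs because the labels give no pairing, and the correlations do not settle the question. Omd was negative in all 19 alternatives and under an unadjusted p of 0.05 in 13, with voom at 0.0517. Between litters, 126 genes were called, against 0 with median-of-ratios scaling, 2 with no filter, 163 with a pseudocount of 0.1 and 0 to 371 when each library was left out; at an unadjusted p under 0.05 the 3026 genes became 1393 to 4248. Over single genes and alternatives, 240 of 269 values kept direction and side of the threshold, 5 lost the call (all Prelp between litters) and 24 reversed, all uncalled. With sample weights the genotype change became 0.064 for Dcn, 0.11 for Lum, -0.0065 for Prelp, -0.055 for Ogn, -0.13 for Epyc, 0.17 for Fmod, -0.30 for Aspn and -0.24 for Bgn, and in litter 1 alone -0.36 for Fmod, -0.10 for Prelp and -0.36 for Ogn. Leaving out each library gave genotype changes of -0.47 to 1.16 for Fmod, -0.98 to 1.35 for Prelp, -0.20 to 0.27 for Ogn, -0.52 to 0.25 for Aspn, -0.62 to -0.13 for Dcn, -0.51 to -0.07 for Lum and -0.24 to -0.05 for Bgn. It gave litter changes of -0.68 to 0.37 for Dcn, -0.34 to 0.029 for Lum, -0.81 to 0.47 for Ogn, -0.0062 to 1.49 for Aspn and -0.21 to 0.17 for Epyc, the last becoming 0.022 with median-of-ratios scaling. The cause was not tested. Epyc was below the mean of 5 RPM and has no value under that filter. Litter 2 has 1 library per genotype, so its spread is assumed to match litter 1.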
